A study of Macaca fascicularis with 1154 samples.

Results

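ENSMFAG00000033907, ENSMFAG00000035965 and ENSMFAG00000045610 are 3 of the 28592 gene IDs measured cell by cell in cultured embryos of the cynomolgus monkey, Macaca fascicularis, a macaque used to study early primate development. They were selected on these same measurements. ENSMFAG00000033907 was taken because its summed counts rose with the day of culture, and ENSMFAG00000035965 and ENSMFAG00000045610 because they were seen mostly in early cells. Their direction with the day is therefore how they were chosen, and every value below is a description. The question was whether each change was one of more cells holding the transcript or of more transcript in the cells that held it.

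Each sample was 1 cell picked with a mouth pipette after trypsin digestion, and its RNA was read by SMART-seq2, which copies and sequences whole transcripts. The titles held a day (9, 11, 13, 15, 17, 19 or 20), a B number and the number of the cell, and all samples carried the tissue label embryo, with no treatment or genotype named. Cells whose titles share the day and the B number form 1 collection (E11 B2 is day 11, number 2), because the labels leave unsaid whether that number is an embryo, a dish or a batch. Of 1154 samples, 600 had a column of counts, from 15 collections, and 593 cells were kept, while the other 554 samples were not analysed here.

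A monkey embryo of these ages is passing from the blastocyst to gastrulation. The epiblast gives rise to the body and the germ cells, while hypoblast, trophoblast and amnion form the supporting tissues, and these lineages switch many genes on in some cells and leave them silent in others. The mean of a transcript over a mixed collection can thus move because more cells transcribe it, because each such cell holds more RNA, or because the mix of cells changed. Fewer cells of a type and less RNA per cell cannot be told apart in summed counts, which is why the single cells were examined. The IDs are not paired with gene symbols in the files, and 0 of them were found in the gene table given with the data. No gene function, cell type or sequence can therefore be attached to the 3 IDs, and the labelled tissue could not be checked against markers.

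Levels are in CPM, the usual scaling of a count by the total count of its cell. Gene lengths were not used here, so levels are not compared between IDs. Early means the collections of days 9, 11 and 13, and late those of days 17, 19 and 20. Collections with at least 10 kept cells entered this comparison, which gave 4 early collections with 179 cells and 7 late ones with 285 cells. The 8 cells of E09 B1 and the 3 collections of day 15 are described but stand in neither group. A few collections stood apart. E19 B2 kept 11 of 15 cells and had the lowest median total, at 583690 counts, against 860529 to 7778288 in the other collections. The titles of E13 B1 and E17 B1 were written with dots and extra letters, and E17 B1 had the next lowest median total.

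In the fit across all IDs, edgeR's quasi-likelihood test on counts summed over 14 collections, the slopes with the day were 0.44 ± 0.07 log2 units per day for ENSMFAG00000033907, -1.05 ± 0.29 for ENSMFAG00000035965 and -1.22 ± 0.16 for ENSMFAG00000045610 (SE). The test called 1 rising ID, ENSMFAG00000033907, and 1 falling ID, ENSMFAG00000045610, each of them 0.00625% of the 16002 IDs tested. Since the members were chosen from this fit, nothing is read from these calls. The adjusted p was 0.0294 for ENSMFAG00000033907 and 0.0225 for ENSMFAG00000045610 in edgeR, just inside the threshold of 0.05, and the first ID outside it stood at 0.0544. ENSMFAG00000035965 stood at 0.380. The 2 calls did not hold throughout. Leaving out E09 B2, E11 B2, E13 B2, E15 B3, E17 B4 or E19 B1 left 0 calls. Leaving out E13 B1 left 1 call and leaving out E15 B1 left 2, all of falling IDs, so ENSMFAG00000033907 was not called there either. With DESeq2 the adjusted p was 5.39e-10 for ENSMFAG00000033907 and 0.453 for ENSMFAG00000045610, and limma called neither (0.332 and 0.728).

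ENSMFAG00000033907 was present in 11 of 36 cells at day 9 and in at least 96.8% of the cells of 5 of the 7 late collections, and its level in the cells that held it was also higher late. At day 9 it had no count in the 8 cells of E09 B1, which allows a share of up to 37.5% of cells, and a mean of 5.62 CPM in E09 B2. The mean was 17.3 CPM at day 11, 35.2 and 45.8 CPM in the collections of day 13, and 65.1, 97.9 and 83.8 CPM in those of day 15. It was 320.8 CPM in E17 B1, 132.9 in E17 B4 and 106.3 in E17 B5. At day 19 the collections lay at 295.8 and 55.8 CPM, and at day 20 at 116.0 and 505.9 CPM.

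The 7 late collections were all above the 4 early ones, although by little at the border, with 55.8 CPM in E19 B2 against 45.8 CPM in E13 B2. Of 9638 IDs with a mean of at least 5 CPM, 36 (0.374%) had every late collection above every early one. The rule had used this contrast, so this count is background. The mean over collections was 26.0 ± 18.0 CPM early and 219.1 ± 161.2 CPM late (SD, n = 4 and 7), a fold of 8.43. The log2 fold was 3.08, and with 1 collection left out it ran from 2.72 without E20 B2 to 3.50 without E13 B2. Without E19 B2, the shallowest, it was 3.25. Collections of 1 day also differed: the means of E20 B2 and E20 B1, or of E19 B1 and E19 B2, were over 4-fold apart.

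**Figure D1:**
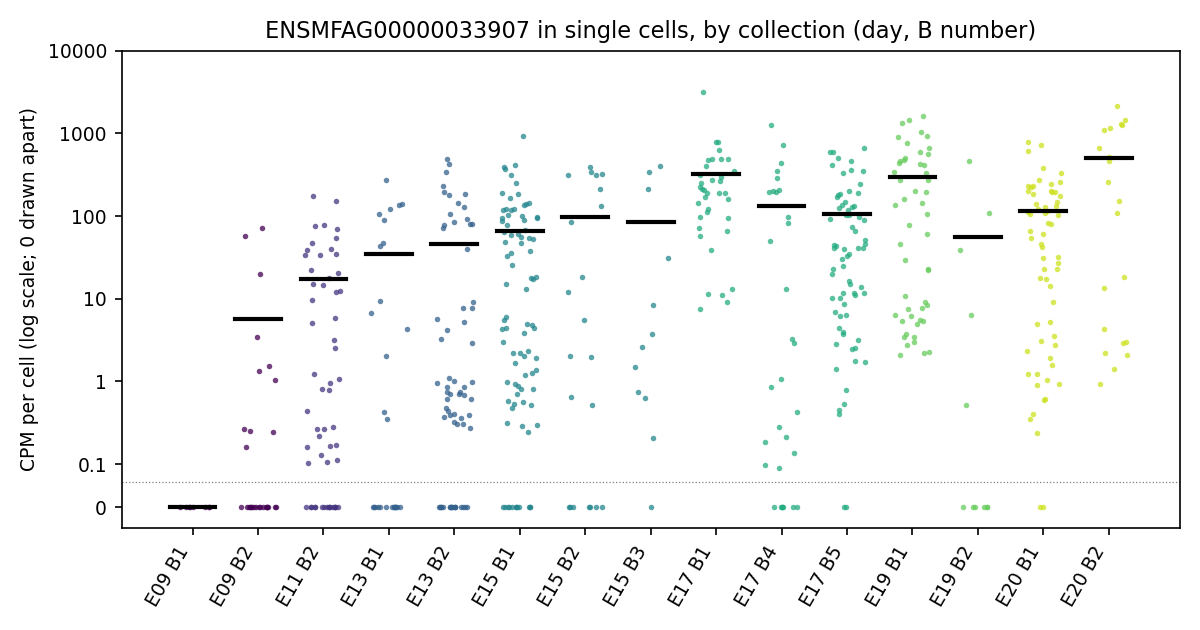
Level of ENSMFAG00000033907 in each of 593 kept cells (points, CPM on a log axis, cells with no count drawn at 0), by collection in order of day and coloured by day; black lines are the mean over the cells of a collection. In most collections cells lay both under 10 and over 100 CPM. The mean was 0 in E09 B1 and 5.62 CPM in E09 B2, and highest in E20 B2 at 505.9 CPM, with E19 B2 at 55.8 and E20 B1 at 116.0 CPM.

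The share of cells with any count rose less than the mean. A count of ENSMFAG00000033907 was found in 39.3% of the cells of E09 B2, 71.9% of E11 B2, and 50.0% and 74.2% of the collections of day 13. At day 15 the share was 86.2%, 68.2% and 91.7% in B1, B2 and B3. All 37 cells of E17 B1, all 51 of E19 B1 and all 21 of E20 B2 were positive, as were 97.2% in E17 B5 and 96.8% in E20 B1, while E17 B4 had 77.4% and E19 B2 only 45.5%. Presence in all cells was common at such levels. Of other IDs within 2-fold of its mean, 82.5% in E17 B1, 81.2% in E19 B1 and 82.6% in E20 B2 were also positive throughout. The exact 95% binomial interval was wide in small collections, from 16.7% to 76.6% in E19 B2. Early and late collections thus overlapped in this share. Its mean was 58.9 ± 17.0% early and 88.1 ± 20.5% late (SD, n = 4 and 7), a fold of 1.50. The mean level in positive cells went from 44.1 to 248.6 CPM, a fold of 5.63. With any count taken as positive, the percent of cells held 18.9% of the log2 change in the mean and the level in positive cells the other 81.1%. A share cannot exceed all cells, and 58.9% were already positive early, so the share had little room to rise. That the level held the larger part at this minimum was therefore set by this ceiling. It is not read as a finding about the level per cell.

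How the change divided depended on where a cell was counted as positive. With at least 5 counts, 28.9% of early and 73.0% of late cells were positive, and the share held 43.4% of the log2 change. With at least 5 CPM, the values were 29.6% and 67.8%, and the share held 38.9%. With at least 50 CPM, a minimum chosen after seeing the data, 15.8 ± 8.3% of early and 49.2 ± 20.2% of late cells were positive (SD, n = 4 and 7), a fold of 3.11. The mean level in those cells was 143.2 CPM early and 437.2 CPM late, a fold of 3.05. At that minimum the percent of cells and the level per cell moved by about the same factor. At no minimum tried was the change one of the level alone. It could not be one of the percent alone at any of them, because early shares of 15.8% or more cannot rise 8.43-fold.

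**Figure D2:**
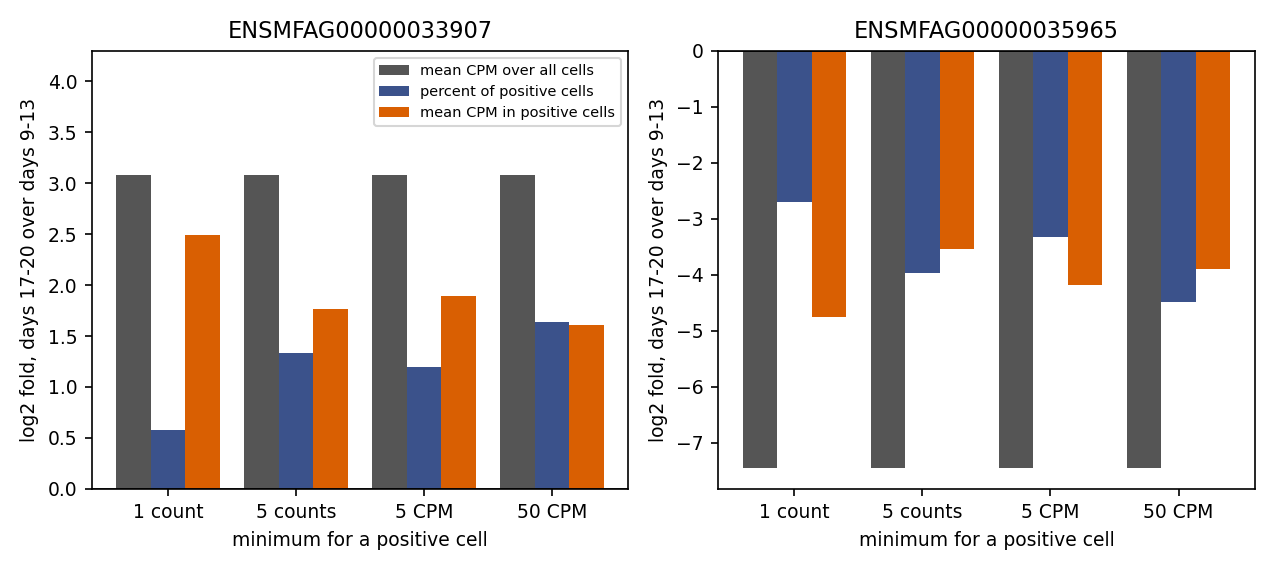
Log2 fold of late over early collections in the mean over all cells, in the percent of positive cells and in the mean of positive cells (bars), for 4 minimums that make a cell positive. For ENSMFAG00000033907 the percent of positive cells accounts for 18.9% of the change at 1 count and 53.2% at 50 CPM. Its rise at 1 count was limited, because a mean of 58.9% of early cells were already positive. For ENSMFAG00000035965 the percent of positive cells accounts for 36.2% at 1 count, and the bars at 50 CPM rest on 2 late cells.

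Depth moved the share but not its direction. When each cell was thinned to 100000 counts, the expected share of cells with a count of ENSMFAG00000033907 was 29.6 ± 11.0% early and 66.9 ± 21.2% late (SD, n = 4 and 7). Thinned to 500000 counts, which left out shallower cells and then E19 B2 for want of 10 cells, it was 38.9 ± 12.4% and 85.4 ± 17.1% (SD, n = 4 and 6). E17 B1, one of the shallowest collections, kept 95.5% of positive cells at 100000 counts. Its lowest cell stood at 7.42 CPM, whereas the lowest cells of E19 B1 and E20 B2, also positive throughout, stood at 2.08 and 0.942 CPM.

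Cells of 1 collection were spread over a wide range of levels. Of 187 early cells, those of E09 B1 included, 38.5% had no count, 23.0% had up to 1 CPM and 9.09% had over 100 CPM. At day 15 the shares over 121 cells were 16.5%, 16.5% and 23.1%. Of 285 late cells, 5.96% had no count, 7.37% had up to 1 CPM and 43.9% had over 100 CPM. Low cells were thus still common at days 19 and 20: 18 of 51 cells in E19 B1, 21 of 63 in E20 B1 and 7 of 21 in E20 B2 were under 10 CPM. In E17 B1 only 2 of 37 cells were. Such a spread was not particular to this ID in E19 B1, where its median cell stood at 0.354 of its mean. Of 745 other IDs within 2-fold of its mean there, 65.4% had a ratio as low or lower. In E20 B2 this held for 21.8% of 591 such IDs and in E17 B1 for 7.38% of 732.

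**Figure D3:**
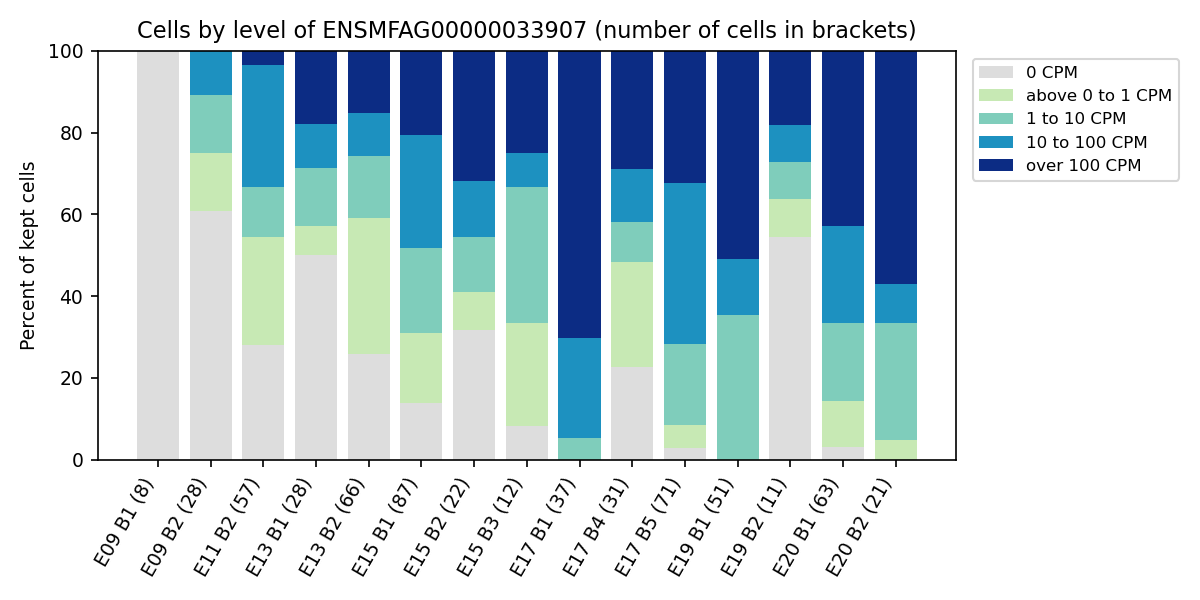
Share of kept cells (percent, number of cells in brackets) in 5 ranges of the level of ENSMFAG00000033907, by collection. The share over 100 CPM was 0 in both collections of day 9, 3.51% in E11 B2, up to 31.8% at day 15, and 18.2% to 70.3% from day 17 on.

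Among high cells alone the level also differed between days, though with much spread. The median of cells with at least 50 CPM was 64.5 CPM in E09 B2 (2 cells), 77.7 in E11 B2 (6 cells), and 130.2 and 136.3 at day 13. It was 117.8, 312.4 and 340.4 CPM in E15 B1, B2 and B3 (the last with 3 cells), and 225.3, 204.4 and 171.6 CPM in E17 B1, B4 and B5. At days 19 and 20 it was 430.2, 283.8 (2 cells), 180.0 and 885.3 CPM. Of the 7 late collections, 5 thus stood below E15 B2 and E15 B3.

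Low counts accompanied high cells in the same collection. In E19 B1, where the counts of ENSMFAG00000033907 summed to 56684, the 18 cells under 10 CPM each had 4 to 17 counts, with a median of 8, which was 0.0141% of that sum. In E20 B2, with a sum of 56879, the 7 such cells had a median of 9 counts, or 0.0158%. In E13 B2, with a sum of 7710, the median of 49 such cells was 1 count. In E09 B2, with a sum of 783, it was 0, and 8 of 25 such cells were positive with at most 2 counts. Other collections did not follow this order. E17 B4, with a sum of 29715, had 77.4% of positive cells, and E17 B1, with a sum of 9412, had 100%. Whether a share at 1 count depends on how much of the transcript the collection held was not tested. Counts in cells under 10 CPM made up at most 3.19% of the sum in any collection with 10 or more kept cells.

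Cells high in ENSMFAG00000033907 were also cells of larger libraries. In 12 collections with at least 3 cells on each side of 50 CPM, the high cells had the larger median number of detected IDs in 12 and the larger median total in 11, E13 B1 being the exception. In E19 B1, for example, 28 high cells had a median of 6501 detected IDs and 3414912.5 counts, against 5319 IDs and 1635841 counts in the other 23. The share of counts in the 2 most abundant IDs, ENSMFAG00000000004 and ENSMFAG00000000002, was lower in the high cells of 9 of the 12, at 11.1% against 20.0% in E19 B1. The part of library size in the result was not tested beyond the thinned shares above. Taking these 2 IDs out of the total gave a log2 fold of 2.98 in place of 3.08.

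Cells were also grouped by ENSMFAG00000038308 and ENSMFAG00000001837, IDs on in some cells and off in others that were picked from earlier results of these data. Among late cells without ENSMFAG00000001837, the level was higher in those with ENSMFAG00000038308. In late cells with at least 5 CPM of ENSMFAG00000038308 and under 5 CPM of ENSMFAG00000001837, the mean of ENSMFAG00000033907 was 508.3 ± 365.5 CPM (SD, 4 collections with at least 5 such cells). Of these cells, 44 of 64 had at least 50 CPM. In late cells with neither ID it was 147.0 ± 78.3 CPM (SD, 7 collections), and in early cells with neither it was 30.4 ± 19.0 CPM (SD, 4 collections). Early cells with ENSMFAG00000001837 alone had 6.89 ± 8.35 CPM (SD, 4 collections), with 2 of 47 cells at 50 CPM or more. Of 11 late cells with both IDs, 0 reached 50 CPM, and their mean was 15.4 CPM in the 1 collection with at least 5 of them. The groups rest on different numbers of collections, so group and collection are mixed in these means. The increase was thus also seen among cells with neither ID, where the late collections ran from 49.3 to 263.8 CPM and the early ones from 13.5 to 47.2 CPM.

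ENSMFAG00000035965 was highest in 1 collection, E11 B2, at a mean of 548.9 CPM. This was the only collection of day 11, so the day and the collection cannot be told apart. It had no count in the 28 cells of E09 B2, the 28 of E13 B1, the 22 of E15 B2, the 12 of E15 B3, the 11 of E19 B2 or the 21 of E20 B2. The mean was 5.15 CPM in E09 B1, all from 1 cell, and 11.6 CPM in E13 B2. It was 1.23 CPM in E15 B1, then 0.0887, 0.578 and 4.28 CPM in E17 B1, B4 and B5, 0.00519 CPM in E19 B1 and 0.664 CPM in E20 B1. E17 B5 was thus higher than 2 of the 4 early collections, and the groups overlapped. A count of 0 in 28 cells allows a share of up to 10.7%, so positive cells in E09 B2 and E13 B1 at a lower share are not excluded.

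The mean of ENSMFAG00000035965 was 140.1 ± 272.6 CPM early and 0.803 ± 1.561 CPM late (SD, n = 4 and 7), a log2 fold of -7.45, and this size came from E11 B2. Without that collection the log2 fold was -2.27, the difference in the percent of positive cells shrank from -27.5 to -5.07 percentage points, and the log2 fold of the level in positive cells from -4.75 to -1.26. The percent of positive cells was 32.6 ± 47.2% early and 5.03 ± 7.91% late (SD, n = 4 and 7), a difference no larger than the pooled spread between collections of 28.0 percentage points. With any count as positive, the share of cells held 36.2% of the log2 change and the level 63.8%. The direction of the level depended on the measure: with the median over positive cells of each collection in place of the mean, the log2 fold was 0.29 in place of -4.75. That value rested on few late cells. The medians of E17 B4 (17.9 CPM), E17 B1 (3.28 CPM) and E19 B1 (0.265 CPM) each came from 1 positive cell. E17 B5 stood at 0.874 and E20 B1 at 0.386 CPM, and the early medians were 6.75 CPM in E11 B2 and 0.698 in E13 B2. At 50 CPM the late side rested on 2 cells of E17 B5, so the split was not read there.

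**Figure D4:**
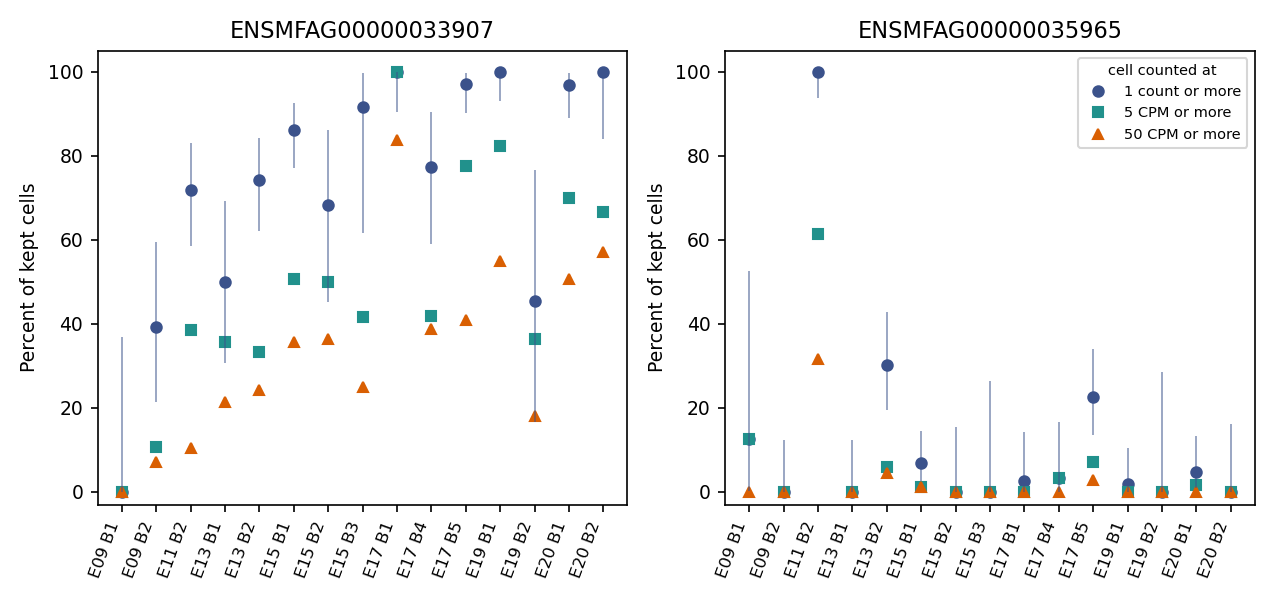
Percent of kept cells with ENSMFAG00000033907 (left) and ENSMFAG00000035965 (right) at 3 minimums, by collection; bars are exact 95% binomial intervals of the share with 1 count or more. In E11 B2 the right panel falls from 100% of cells at 1 count to 31.6% at 50 CPM, and the other collections lie at 30.3% or less.

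Within E11 B2 a few cells carried most of the transcript. All 57 cells had a count of ENSMFAG00000035965, but the median was 6.75 CPM and the highest cell stood at 11614.3 CPM, 37.1% of the sum over cells of CPM. The 3 highest cells made up 64.5%. Of the 57 cells, 16 had 100 CPM or more, 11 had 10 to 100 and 30 had under 10. Those 30 cells had 11 to 47 counts each, with a median of 19, in totals of 2073797 to 9780306 counts, and held 0.254% of the collection's counts of this ID. The median count was 0.00785% of the sum of 242018. Of 307 other IDs within 2-fold of its mean in this collection, 306 were also found in all 57 cells, but their median cell stood at 0.927 of their mean, against 0.0123 for ENSMFAG00000035965. Cells with any count were thus 100% of the collection and cells at 50 CPM or more 31.6%. Whether the low counts came from the cells themselves or were carried over from the libraries of the few high cells was not tested.

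The same form was seen at lower level elsewhere. In E13 B2, 20 of 66 cells were positive, 16 of them with 1 or 2 counts, and 4 had 5 counts or more, the highest at 482.5 CPM. In E17 B5, 16 of 71 cells were positive, 10 with 1 or 2 counts, and 5 had over 10 CPM, the highest at 118.3 CPM. In E15 B1, 6 of 87 were positive, 5 of them with 1 count and 1 at 103.8 CPM. Of the 24 cells with at least 50 CPM in all 15 collections, 18 were in E11 B2, 3 in E13 B2, 2 in E17 B5 and 1 in E15 B1. High cells of this ID were thus rare from day 15 on, at 3 of 406, and present at days 15 and 17.

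ENSMFAG00000045610 came from 4 cells with more than 2 counts. Of 593 cells, 13 held a count, 2 in E09 B1, 5 in E09 B2, 5 in E11 B2 and 1 in E13 B2, and 9 of these held only 1 or 2 counts. The 4 others had 259 counts in E09 B1 (21.1 CPM), 295 in E09 B2 (78.8 CPM), 78 in E11 B2 (13.0 CPM) and 20 in E13 B2 (7.95 CPM). Each of these collections thus held 1 such cell, and in the first 3 that cell made up at least 96.4% of the sum over cells of CPM. No count was found in the 28 cells of E13 B1, in 121 cells of day 15 or in 285 cells of days 17 to 20. The last 2 zeros allow shares of up to 2.48% and 1.05% of cells when cells are pooled over collections as if independent.

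The mean of ENSMFAG00000045610 over early collections was 0.809 ± 1.383 CPM (SD, n = 4), and the late collections were at 0. Summed over collections there were 402 early counts, or 0.615 CPM, and 0 late ones. Against a floor of 3 counts over the summed late group, 0.00311 CPM, the early sum was 197.6-fold higher, and 57.9-fold higher without E09 B2. These folds cover counting error only and are no bound on the level, since few early cells held the transcript. The early counts came almost wholly from cells with 295, 78 and 20 counts. The late zeros allow up to 1.05% of cells only if all late cells are pooled as independent draws. Taken by collection, they allow from 4.23% in E17 B5 to 27.3% in E19 B2. These limits lie above the early share at 5 counts, 1.71% as a mean over collections. The mean over collections against the same floor gave -8.02 on the log2 scale. It is no bound either, because that mean weights collections equally and the floor does not. The percent of positive cells was 7.04 ± 8.17% early (SD, n = 4) at 1 count and 1.71 ± 1.46% at 5 counts. Because late cells held no count, whether the level in positive cells changed has no answer here. After thinning to 100000 counts, 1.60 ± 1.82% of early cells were expected to be positive (SD, n = 4), so at equal shallow depth most of the positive cells would be missed. Among 12975 IDs found in as many early cells as this one or more, 2 had no count in any of the 406 cells from day 15 on, this ID included. The ID was chosen because it was seen mostly in early cells, so this count is background. The IDs compared also include those found in many more early cells.

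**Figure D5:**
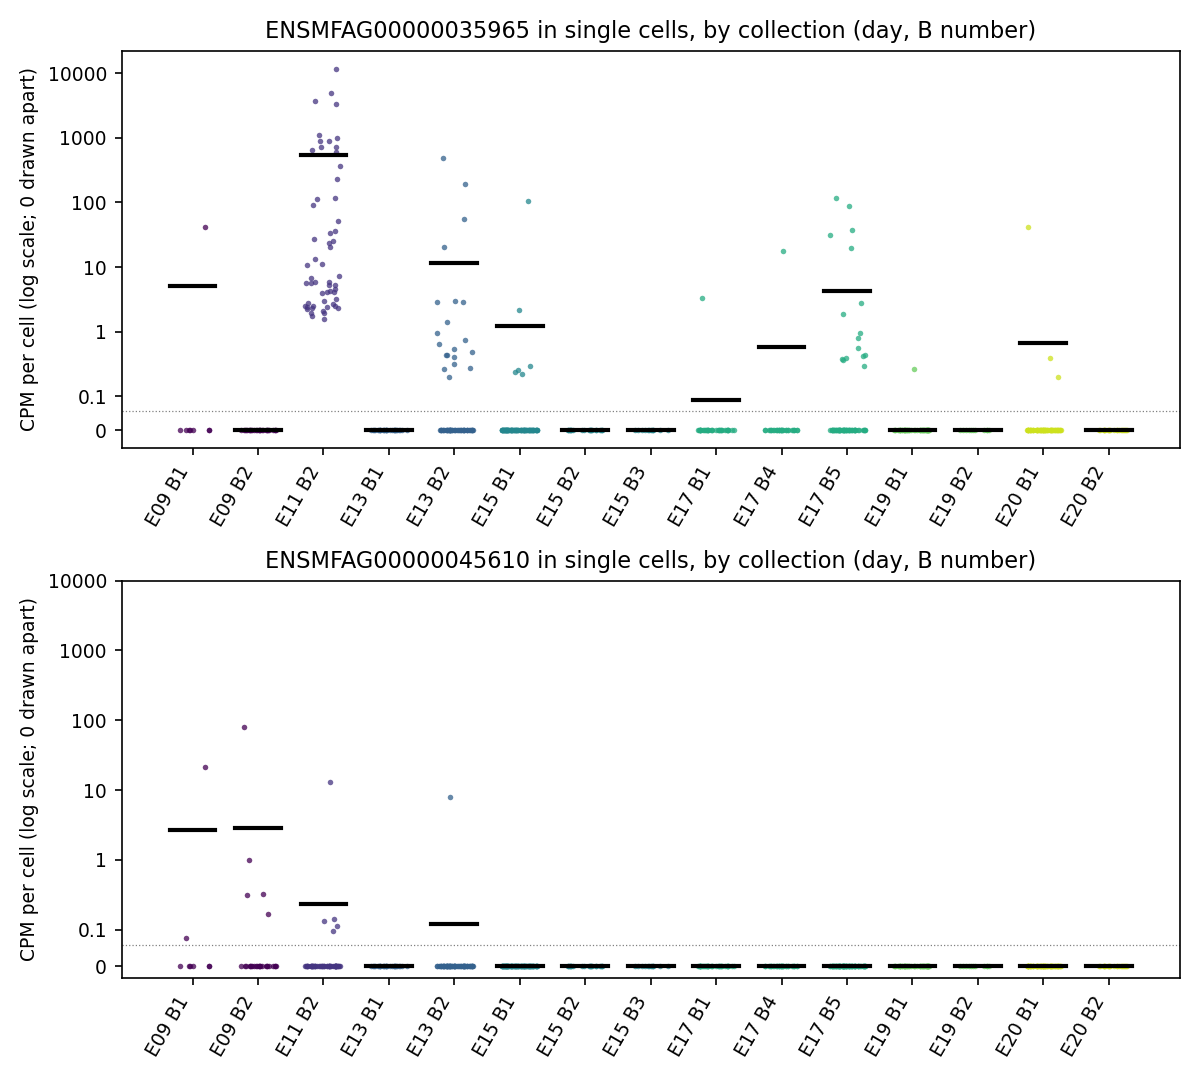
Level of ENSMFAG00000035965 (top) and ENSMFAG00000045610 (bottom) in each of 593 kept cells (points, CPM on a log axis, cells with no count drawn at 0), by collection in order of day; black lines are means over cells, and means under 0.03 CPM are drawn at 0. The top panel shows the cells of E11 B2 between 1.57 and 11614.3 CPM, and the bottom panel 4 cells above 1 CPM in all.

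Cells with 2 of the IDs were counted next. At 1 count, 82 cells held both ENSMFAG00000033907 and ENSMFAG00000035965, which was 16.9% of the 484 cells with the first and 77.4% of the 106 with the second. That was no more than the 81.6% of all 593 cells with a count of ENSMFAG00000033907. At 50 CPM, 8 cells held both, 3.67% of 218 and 33.3% of 24, while ENSMFAG00000033907 reached 50 CPM in 36.8% of all 593 cells. In E11 B2, 5 of the 6 cells with 50 CPM or more of ENSMFAG00000033907 were among the 18 with 50 CPM or more of ENSMFAG00000035965. There the 16 cells with at least 100 CPM of ENSMFAG00000035965 had a median of 15.1 CPM of ENSMFAG00000033907, against 0.262 CPM in the other 41, so the rising ID was not lacking in the cells with the falling one. The cell of E09 B1 with 259 counts of ENSMFAG00000045610 was also the only cell of day 9 with ENSMFAG00000035965, at 506 counts. The cells with 295, 78 and 20 counts of ENSMFAG00000045610 each had 1 count of ENSMFAG00000033907.

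The patterns most like each member were looked for among 9637 or 9638 IDs with a mean of at least 5 CPM, as the Pearson correlation of log2(mean CPM + 1) over 14 collections. For ENSMFAG00000033907 these were ENSMFAG00000038626 (r = 0.906), which went from 41.3 CPM in E09 B2 to 255.2 CPM in E20 B2, and ENSMFAG00000036133 (r = 0.896), from 39.5 to 575.3 CPM. Of 9637 IDs, 37 had r above 0.8. Over 593 cells, which share their libraries' depth, Spearman's rho with these was 0.242 and 0.471. These values are not compared with r, which is another measure on means of cells and was picked as the highest of 9637 IDs. ENSMFAG00000033423 (r = 0.815) and ENSMFAG00000044625 (r = 0.787) were nearest to ENSMFAG00000035965, at 86.1 and 30.7 CPM in E11 B2. ENSMFAG00000040016 (r = 0.985) and ENSMFAG00000002919 (r = 0.963) were nearest to ENSMFAG00000045610. Both values rest on E09 B2, where they stood at 121.8 and 126.1 CPM. ENSMFAG00000040016 shared 1 of the 13 cells with ENSMFAG00000045610 and ENSMFAG00000002919 shared 11, out of 11 and 76 cells that held them.

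Read beside all IDs, the part of the change of ENSMFAG00000033907 held by the percent of positive cells was common. Of 9623 IDs with a mean of at least 5 CPM and positive cells in both periods, 1731 were at least 2-fold higher late and 645 at least 2-fold lower. Among the higher ones the percent of positive cells held a median of 20.9% of the log2 change (quartiles 4.15% and 38.5%), against 18.9% for ENSMFAG00000033907. Among the lower ones it held a median of 48.3% (quartiles 28.7% and 65.4%), against 36.2% for ENSMFAG00000035965. With 5 counts as the minimum the medians were 30.9% and 51.6%, against 43.4% and 53.3% for the 2 members. Both members thus lay between the quartiles at either minimum. For IDs higher late, the part held by the percent is also limited by the share of cells already positive early. The IDs compared changed less, with median log2 folds of 1.58 and -1.44 at 1 count, against 3.08 and -7.45 for the members. No such comparison was made at 50 CPM.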

How the data were processed

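The authors deposited 1 table of estimated counts per gene ID and cell, not normalized. The submitters' processing notes name STAR 2.3.4 and RSEM. The build of the genome is not given in the sources used here, nor is its annotation. The protocol uses no molecular identifiers, so intervals and floors cover counting error only. Counts were rounded (2.23% of values were not whole). Cells needed 100000 counts and 2000 detected IDs, which left out 7, and totals of kept cells ranged from 107155 to 18828693. CPM is per total rounded count. Shares have exact (Clopper-Pearson) 95% intervals, and zeros allow 3 counts or 3 cells. Thinning gives the expected detection when counts are drawn without replacement.

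Counts summed per collection entered edgeR 4.0.16 (quasi-likelihood, TMM, filterByExpr, day as a number, Benjamini-Hochberg over all IDs tested, R 4.3.3). DESeq2 1.42.0 and limma 3.58.1 were alternatives, and the fit was tested on simulated data. The labels do not say that collections are separate embryos, so a p-value measures only how collections spread, which may be technical. The members, the split of days and the IDs compared were chosen with earlier results of these data known. Named IDs were the members and the 2 IDs most like each over collections. The 2 most abundant IDs and the 2 on-off IDs were added because values turned on them.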

Additional observations from a re-analysis of the deposited data

Results flagged for a closer look

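Some collections stood apart from the others of their period, by the gap to the nearest collection over the range (chance flags about 1 group in 20). For ENSMFAG00000033907 this was E19 B2, with 45.5% of positive cells against 77.4% in the next of 7 late collections. For ENSMFAG00000035965 it was E11 B2, at 548.9 CPM against 11.6 CPM in the next of 4 early collections, and E17 B5, at 4.28 CPM against 0.664 CPM and 22.5% of positive cells against 4.76% in the next of 7 late ones. For ENSMFAG00000045610 it was E09 B2, at 2.88 CPM against 0.236 CPM in the next of 4 early collections. The 8 cells of E09 B1, which entered no comparison, held 506 counts of ENSMFAG00000035965 and 260 of ENSMFAG00000045610, above the limit of 3 counts.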

How the results depend on the processing

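Of 79 alternative values of the members, including sums per period added after seeing the data, 71 moved by less than the spread between collections, and of 88 values with 1 collection left out, 85 did. This tally is no measure of stability where the spread is wide. For ENSMFAG00000035965 it was 28.0 percentage points, so the move from -27.5 to -5.07 points without E11 B2 counted as within it. For ENSMFAG00000045610, leaving out a late collection could not move the percent of positive cells, since every late share was 0. With days 9 and 11 against 19 and 20, ENSMFAG00000033907 had log2 folds of 4.41 in the mean and 3.79 in positive cells, against 3.08 and 2.49, and ENSMFAG00000045610 had a difference in positive cells of -13.3 percentage points in place of -7.04. The latter was -1.71 points with 5 counts or 5 CPM as the minimum, -0.893 with 50 CPM (chosen after seeing the data) and -1.60 when thinned to 100000 counts. The level of ENSMFAG00000035965 in positive cells reversed with the median of each collection in place of the mean, at 0.29 on the log2 scale against -4.75 (the cause was not tested). The late medians of E17 B1, E17 B4 and E19 B1 each came from 1 positive cell, that of E17 B4 being the highest at 17.9 CPM.

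With each collection left out, the log2 fold in the mean ranged from 2.72 to 3.50 for ENSMFAG00000033907, from -9.30 to -2.27 for ENSMFAG00000035965 and, against the late floor, from -8.44 to -5.25 for ENSMFAG00000045610. The difference in positive cells ranged from 22.7 to 36.4, from -38.4 to -5.07 and from -9.38 to -3.43 percentage points, and the log2 fold of the level from 2.17 to 2.79 and from -5.35 to -1.26.

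The 2 IDs called with the day became 166 with DESeq2, 0 with limma, 6 without a filter, 18 with a minimum of 5 cells and 0 without the collections with dots, and ranged from 0 to 3 with 1 collection left out. With the B number as a replicate block 1 ID was called and 0 of the members. The B number did not pair collections, since the deviations of B1 and B2 from their day correlated between -0.153 and 0.0504 over 6 pairs of days. At an unadjusted p under 0.05 edgeR had 903 IDs. Shares rest on 11 to 87 cells a collection, which limits what can be told about rare cells.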
